A study of Mus musculus with 4 samples.

Results

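The 10 genes described here encode the enzymes and shared subunits of the mouse complexes that methylate lysine 4 of histone H3 (H3K4). They were taken by symbol from the count table of every library, as 6 methyltransferases (Kmt2a, Kmt2b, Kmt2c, Kmt2d, Setd1a and Setd1b) and 4 core subunits (Ash2l, Wdr5, Rbbp5 and Dpy30), out of 54752 genes listed. All 10 were found, and all 10 had enough counts to be tested, as did 14330 genes in all. They were chosen because the study measured trimethylated H3K4 (H3K4me3), and the rule that picks them uses no expression value, although earlier results of these data were known when it was set.

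Naïve CD4+ T cells were isolated from mouse spleen and cultured for 3 days under conditions that favour T follicular helper (Tfh) cells, which help B cells make antibody. The culture held plate-bound anti-CD3, anti-CD28, IL-6 and neutralizing antibodies to TGF-β, IL-4, IFN-γ and IL-2, and viable cells were sorted again before RNA was prepared. WT cells came from littermates, and Mek1/2-tKO cells came from mice with floxed alleles of Map2k1 and Map2k2 (both fl/fl) and a Cd4-Cre transgene, on a C57BL/6 background. Each genotype had 2 libraries. Cd4-Cre is active from the CD4-expressing stage of thymic development onwards, so CD8 T cells of these mice also lose the floxed exons. The age of the mice is not given in the labels, nor is it stated whether WT littermates carried floxed alleles or Cre, or whether the 2 libraries came from separate mice or cultures. The p values given here therefore measure only the spread between these libraries, which may be technical.

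H3K4 methylation is laid down by a family of SET-domain enzymes that are nearly inactive alone and gain activity when they bind Wdr5, Rbbp5, Ash2l and Dpy30. Setd1a and Setd1b are responsible for much of the trimethylation at active promoters, Kmt2a and Kmt2b act at subsets of CpG-rich promoters, and Kmt2c and Kmt2d are best known for monomethylation at enhancers. In T cells H3K4me3 accompanies active promoters of lineage genes. Enzymes of the Kdm5 family remove tri- and dimethylation, and those of the Kdm1 family remove di- and monomethylation.

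Levels are given in CPM, the counts of a gene relative to its library's total after scaling by edgeR's TMM method. Library totals lay between 16330802 and 18931090 counts, and the members were counted between 179 times (Setd1b) and 2566 times (Wdr5) in a library. The 10 most abundant genes of each library took 5.12 to 5.30% of its counts. Map2k1, the targeted gene encoding MEK1, was measured at 182 and 187 CPM in WT against 98.0 and 105 CPM in Mek1/2-tKO (log2 fold change -0.86, adjusted p = 1.29e-06 by edgeR's quasi-likelihood test). Map2k2, encoding MEK2, was at 155 and 165 CPM against 172 and 182 CPM, a difference that did not pass the test (adjusted p = 0.126 by edgeR's quasi-likelihood test). A count over the whole gene does not tell a transcript lacking the floxed exons from a complete one. Markers of other cell types differed between the genotypes. The 12 B-lineage markers summed to 1297 to 1321 CPM in WT and to 6838 to 6864 CPM in Mek1/2-tKO, the 6 CD8 and gamma-delta T-cell markers to 62.8 to 73.5 against 331 to 373 CPM, the 6 NK-cell markers to 93.0 to 95.6 against 571 to 615 CPM, and the 6 myeloid markers to 3.44 to 3.99 against 17.1 to 21.3 CPM. All 12 B-lineage, 6 of 6 CD8 and gamma-delta, 6 of 6 NK-cell and 3 of the 3 tested myeloid markers were higher in Mek1/2-tKO, and the myeloid marker Adgre1 was at 0 in WT. Of the defining genes, Cd79a of B cells was at 56.8 and 59.0 CPM in WT against 630 and 614 CPM. Trdc of gamma-delta T cells was at 1.64 and 1.56 against 57.9 and 53.6 CPM, and Lyz2 of myeloid cells at 0.41 and 0.62 against 10.2 and 6.23 CPM. Nkg7 of the NK-cell list, a gene that cytotoxic T cells also express, was at 62.8 and 65.2 against 436 and 405 CPM. The 11 genes listed as alpha-beta CD4 T-cell markers summed to 2976 to 2977 CPM in WT and 2503 to 2678 CPM in Mek1/2-tKO. Of these, 5 were lower and 1 higher. All but Cd4 are also expressed by other T cells, so this sum does not measure CD4 T cells alone. Cd4 itself was at 297 and 289 CPM against 18.8 and 25.1 CPM, so the defining marker of the labelled cell type was low in Mek1/2-tKO. The others called lower were Trac (219 and 230 against 121 and 107 CPM), Cd3e (91.8 and 91.7 against 43.9 and 44.1 CPM), Cd5 (368 and 384 against 132 and 125 CPM) and Cd28 (122 and 114 against 29.9 and 29.2 CPM). Thy1, the most abundant gene of this list, was the 1 called higher, at 561 and 574 CPM against 1021 and 998 CPM. The 12 cell-cycle genes summed to 3494 to 3516 CPM in WT and to 2452 to 2454 CPM in Mek1/2-tKO, with 6 lower and 0 higher. The part of these shifts in the results below was not tested. In bulk RNA, fewer cells of a type and less RNA per cell cannot be told apart.

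The question of the main comparison was whether loss of MEK1 and MEK2 changed the transcripts of the H3K4 methyltransferase machinery. Of the 10 members, Dpy30 rose and Setd1a fell, and the other 8 did not pass both thresholds. A gene was called when its adjusted p by edgeR's quasi-likelihood test was under 0.05 and its fold change was at least 1.5. Over all 14330 genes tested, 35.8% were called, 19.3% higher and 16.4% lower, so the share called among the members (2 of 10) was below that of genes at large. At the adjusted p alone, 5 members passed, 1 higher (Dpy30) and 4 lower (Kmt2b, Setd1a, Wdr5 and Rbbp5), against 55% of all genes (27.8% of all genes higher and 27.2% lower). DESeq2 also called 1 member higher and 1 lower, where it called 27.9% of all genes, 14.9% higher and 13% lower. The median log2 fold change was -0.27 for the members, -0.22 for the enzymes and -0.30 for the core subunits, against 0.02 for all genes, and that of the members turned to 0.18 when the trend on gene length was taken out. The libraries of the genotypes did not overlap for 9 of the 10 members, 7 lower and 2 higher in Mek1/2-tKO, where 78.3% of all genes did not overlap.

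**Figure D1:**
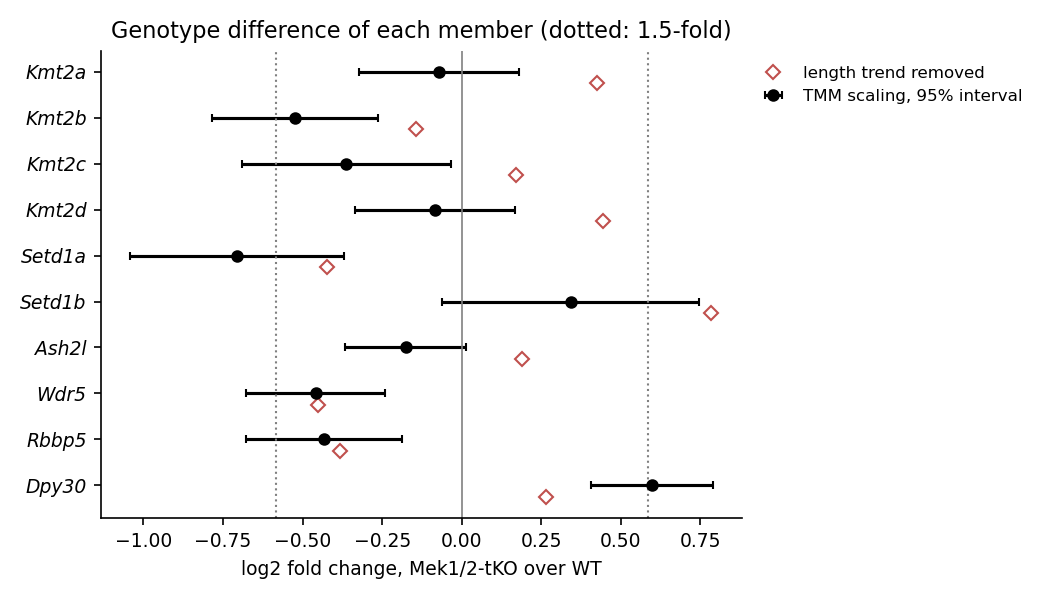
Log2 fold change (Mek1/2-tKO over WT, horizontal axis) of each of the 10 members, with filled points for the estimate of edgeR's quasi-likelihood fit, bars for its 95% confidence interval, open diamonds for the estimate with the length trend taken out, and dotted lines at a 1.5-fold change. Dpy30 lies highest at 0.60 and Setd1a lowest at -0.71, and the diamonds of Kmt2a, Kmt2c, Kmt2d and Ash2l lie above 0 where their points lie below it.

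Of the enzymes, only Setd1a was called. Setd1a (ENSMUSG00000042308.14, chr7:127776670-127800122 on GRCm38), which trimethylates H3K4 at promoters, was at 29.1 and 30.1 CPM in WT against 15.2 and 20.9 CPM in Mek1/2-tKO. Both Mek1/2-tKO libraries lay below both WT libraries, and replicate 1 was the lower of them. Its log2 fold change was -0.71 (SE, or standard error, 0.16, adjusted p = 0.00171 by edgeR's quasi-likelihood test), and it was no longer called without Mek1/2-tKO replicate 1 (-0.50), with the trend on exon length taken out (-0.42) or with those on GC content and length taken out (-0.46). Of the exon bases of Setd1a, 51.8% also lie in the annotated gene Gm49388 on the same strand, which had 0 counts in every library although all of its own exon bases are shared. Reads on the shared bases were thus not counted for Gm49388, and whether they were counted for Setd1a is not given in the sources used here. Per kilobase of the unshared exon the level of Setd1a was 9.05 ± 0.224 CPM for WT against 5.53 ± 1.23 CPM for Mek1/2-tKO (mean ± SD over the 2 libraries of each). The length trend above was taken at the full exon length of 6795 bases, of which 3272 are unshared. A fit at the unshared length was not run.

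Setd1b (ENSMUSG00000038384.16, chr5:123142193-123168629), its paralog and the least counted member, was at 9.19 and 11.6 CPM in WT against 12.7 and 13.7 CPM in Mek1/2-tKO. The genotypes did not overlap, but the log2 change of 0.34 had a 95% confidence interval from -0.06 to 0.74 and did not pass (adjusted p = 0.139 by edgeR's quasi-likelihood test). The ratio of Setd1a to Setd1b counts, which does not depend on the scaling between libraries, was 3.17 and 2.59 in WT and 1.20 and 1.53 in Mek1/2-tKO. Every WT ratio lay above every Mek1/2-tKO ratio, a difference of -1.08 on the log2 scale, and the exact two-sided permutation test gave p = 0.333, the smallest that 2 libraries against 2 allow.

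The KMT2A and KMT2B pair, which bind unmethylated CpG through a CXXC domain and hold the mark at developmental promoters, did not reach both thresholds. Kmt2a (ENSMUSG00000002028.13, chr9:44803355-44881296) was at 34.9 and 38.4 CPM in WT against 33.5 and 36.3 CPM in Mek1/2-tKO. It was the only member whose genotypes overlapped, at a log2 change of -0.07 (95% confidence interval -0.32 to 0.18) that turned to 0.43 with the length trend taken out. Kmt2b (ENSMUSG00000006307.16, chr7:30568858-30588726) was at 55.3 and 63.8 CPM against 37.3 and 45.3 CPM, lower in both Mek1/2-tKO libraries than in either WT library. Its log2 change of -0.52 (SE 0.12, adjusted p = 0.00235 by edgeR's quasi-likelihood test) stayed under the fold threshold. With the length trend taken out it was -0.14 and did not pass at the adjusted p either (adjusted p = 0.294 by edgeR's quasi-likelihood test). The log2 ratio of Kmt2a to Kmt2b was -0.66 and -0.73 in WT and -0.16 and -0.32 in Mek1/2-tKO, without overlap (exact permutation p = 0.333).

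Kmt2c and Kmt2d, the enhancer monomethyltransferases, did not pass the test. Kmt2c (ENSMUSG00000038056.15, chr5:25271798-25498783) was at 18.1 and 18.4 CPM in WT and at 14.2 CPM in both Mek1/2-tKO libraries, at a log2 change of -0.36 (95% confidence interval -0.69 to -0.03) that missed the threshold (adjusted p = 0.0579 by edgeR's quasi-likelihood test) and turned to 0.17 with the length trend taken out. Kmt2d (ENSMUSG00000048154.17, chr15:98831669-98871204) was at 35.3 and 34.5 CPM against 31.5 and 34.3 CPM. Its log2 fold change was -0.08 with a 95% confidence interval of -0.33 to 0.17. It turned to 0.44 with the length trend taken out (adjusted p = 0.00242 by edgeR's quasi-likelihood test), still under the fold threshold. The log2 ratio of Kmt2c to Kmt2d was -0.96 and -0.91 in WT and -1.15 and -1.28 in Mek1/2-tKO, without overlap (exact permutation p = 0.333).

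**Figure D2:**
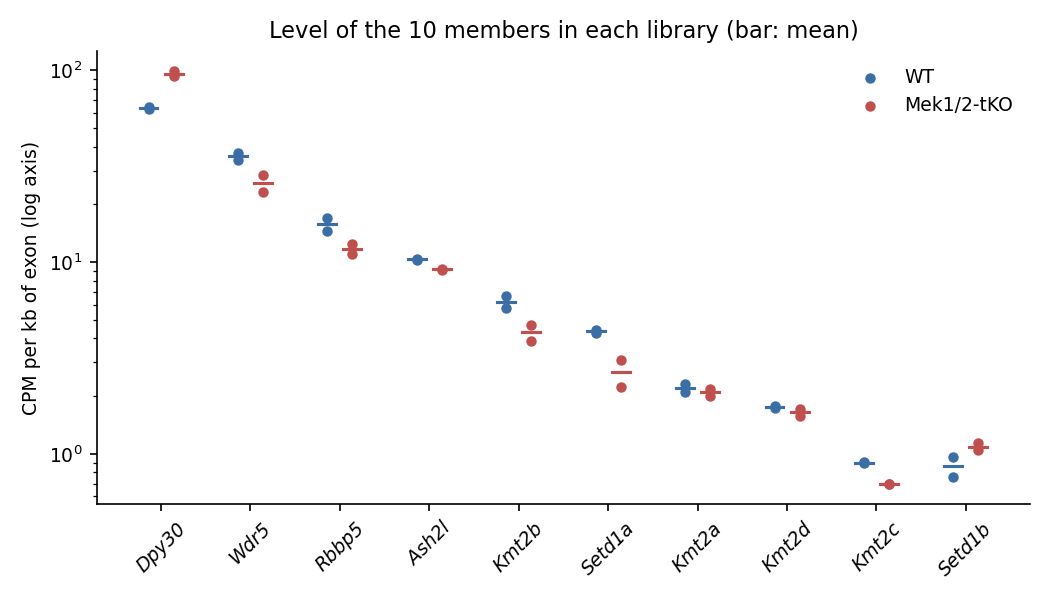
Level of each member in each library, in TMM-scaled CPM per kilobase of exon on a log axis, with WT and Mek1/2-tKO side by side, a point for each library and a bar for the mean of each genotype. Dpy30 lies highest in both genotypes, and the 4 Kmt2 and 2 Setd1 enzymes lie below all 4 core subunits.

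Of the core subunits only Dpy30 was called, and the other members of the core had log2 fold changes of -0.18 to -0.46, although that of Ash2l turned positive when the length trend was taken out. Dpy30 (ENSMUSG00000024067.14, chr17:74299474-74323944), a small protein that docks on Ash2l as a dimer, was at 71.8 and 74.1 CPM in WT against 113 and 107 CPM in Mek1/2-tKO. Both Mek1/2-tKO libraries lay well above both WT libraries. Its log2 fold change was 0.60 (SE 0.09, adjusted p = 7.34e-05 by edgeR's quasi-likelihood test), just past the threshold at a fold change of 1.51, and it was under that threshold with the length trend taken out (0.27), with the GC and length trends taken out (0.33), with scaling by library size alone (0.51), without WT replicate 1 (0.57) and without Mek1/2-tKO replicate 1 (0.56).

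Wdr5 (ENSMUSG00000026917.15, chr2:27515157-27536535), a WD-repeat protein that holds the enzyme to the other subunits, was at 123 and 133 CPM in WT against 83.9 and 102 CPM in Mek1/2-tKO. Every Mek1/2-tKO library lay below every WT library, and the log2 fold change was -0.46 (SE 0.10, adjusted p = 0.00174 by edgeR's quasi-likelihood test). Rbbp5 (ENSMUSG00000026439.14, chr1:132477365-132505659), which contacts the SET domain together with Ash2l, was at 67.1 and 57.4 CPM against 43.4 and 48.8 CPM, at a log2 change of -0.43 (SE 0.11, adjusted p = 0.00533 by edgeR's quasi-likelihood test). Both passed at the adjusted p but not at the fold threshold. Ash2l (ENSMUSG00000031575.18, on mouse chromosome 8 at 25815996 to 25847694), the docking site of Dpy30, was at 92.3 and 93.7 CPM against 82.7 and 81.9 CPM, and its log2 change of -0.18 did not pass (adjusted p = 0.105 by edgeR's quasi-likelihood test).

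Dpy30 and Wdr5 were the most abundant core subunits per length and their transcripts lay in opposite directions, so the sequence just upstream of a RefSeq start site of each gene is shown. The stretches are cut from the RefSeq promoter table (GRCm38.p6), leave out exon bases, run 5′ to 3′ on the strand of the gene, and have each CpG in capitals, the dinucleotide that the CXXC domains of Kmt2a, Kmt2b and Cxxc1 bind when it is unmethylated. The Dpy30 stretch is chr17:74316464-74316683 on the minus strand, with 15 CpG in 220 bases and 63.2% GC, and it lies in an intron of the annotated gene, whose most distal start is further upstream. The Wdr5 stretch is chr2:27514897-27515146 on the plus strand, with 12 CpG in 250 bases and 54.4% GC, and it ends just before the annotated start of the gene.
Dpy30: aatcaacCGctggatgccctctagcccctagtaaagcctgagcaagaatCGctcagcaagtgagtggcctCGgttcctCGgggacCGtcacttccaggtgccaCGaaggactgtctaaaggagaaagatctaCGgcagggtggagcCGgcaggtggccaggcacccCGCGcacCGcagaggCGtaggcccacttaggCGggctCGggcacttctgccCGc
Wdr5: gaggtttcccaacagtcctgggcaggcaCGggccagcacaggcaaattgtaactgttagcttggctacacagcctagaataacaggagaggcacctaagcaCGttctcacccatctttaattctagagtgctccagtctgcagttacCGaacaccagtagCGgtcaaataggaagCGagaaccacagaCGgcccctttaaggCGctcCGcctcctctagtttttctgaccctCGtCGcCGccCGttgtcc

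The table held start-site windows of 300 bases for 7 of the 10 members, 10 windows in all, and had no entry for Kmt2b, Setd1b or Ash2l. The median of all 32851 promoters was 7 CpG per window, whereas the windows of Rbbp5, Wdr5, Kmt2d, Setd1a, Kmt2a and Kmt2c held 16, 22, 27, 35, 36 and 56. The 4 Dpy30 windows held 1, 30, 34 and 39. Motifs of factors downstream of MEK and ERK were looked for on both strands. The ETS motif CCGGAAG was in 8.86% of all promoters, the AP-1 motif TGANTCA in 7.81% and the CArG box of serum response factor in 1.63%, and none of the 10 member windows held these letters.

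Per kilobase of exon, which allows levels of different genes to be set side by side, the core subunits stood above the enzymes in both genotypes. In WT the levels were 63.7 ± 1.43 CPM per kilobase for Dpy30, 35.6 ± 2.00 for Wdr5, 15.8 ± 1.75 for Rbbp5 and 10.4 ± 0.114 for Ash2l (SD, n = 2). The enzymes followed with 6.21 ± 0.632 for Kmt2b, 4.36 ± 0.108 for Setd1a, 2.20 ± 0.146 for Kmt2a, 1.75 ± 0.0253 for Kmt2d, 0.899 ± 0.00854 for Kmt2c and 0.862 ± 0.143 for Setd1b. Of the neighbours in that order, only the library ranges of Kmt2c and Setd1b overlapped. In Mek1/2-tKO the order of the first 8 was kept, from 96.3 ± 3.70 CPM per kilobase for Dpy30 to 1.65 ± 0.0984 for Kmt2d, and Setd1b (1.09 ± 0.0601) stood above Kmt2c (0.699 ± 0.00156). No neighbours overlapped in Mek1/2-tKO. The place of Setd1a depends on the exon bases counted. Per kilobase of its unshared exon it stood above Kmt2b in WT, at 9.05 ± 0.224 against 6.21 ± 0.632, and in Mek1/2-tKO its mean of 5.53 ± 1.23 was above the 4.31 ± 0.588 of Kmt2b with library ranges that overlapped.

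The share that each member took of the summed enzyme or core transcripts did not overlap between the genotypes for 9 of the 10 members, the exception being Kmt2c. Shares of 1 total depend on each other, and a like figure over all genes was not computed. The nearest figure is for levels, which did not overlap for 78.3% of all genes. Summed per kilobase, the 6 enzymes came to 16.3 ± 1.01 CPM per kilobase in WT and 12.5 ± 1.46 in Mek1/2-tKO, while the 4 core subunits came to 125 ± 1.80 and 143 ± 0.789. Setd1a took 26.8 ± 1.00% of the enzyme total in WT and 21.2 ± 2.26% in Mek1/2-tKO, and Setd1b took 5.28 ± 0.548% and 8.76 ± 0.541%. With Setd1a taken per kilobase of unshared exon, its share was 43.2 ± 1.25% in WT and 35.8 ± 3.12% in Mek1/2-tKO, and the enzyme total was 20.97 ± 1.13 and 15.4 ± 2.10 CPM per kilobase. Dpy30 took 50.7 ± 0.413% of the core total in WT and 67.3 ± 2.96% in Mek1/2-tKO, and Wdr5 took 28.4 ± 1.19% and 18.1 ± 2.41%. For the enzymes against the core, the log2 ratio was -2.997 and -2.90 in WT and -3.63 and -3.41 in Mek1/2-tKO, a difference of -0.57 without overlap. Without Dpy30 in the core, a ratio added after the values were seen, it was -1.98 and -1.87 in WT and -1.93 and -1.88 in Mek1/2-tKO, which overlapped (difference 0.02, exact two-sided permutation p = 1). The ratio of Dpy30 to the sum of Wdr5, Rbbp5 and Ash2l, added after the values were seen, was 1.02 and 1.04 in WT and 2.27 and 1.88 in Mek1/2-tKO. Of the 7 ratios computed, the other 6 each gave an exact two-sided permutation p of 0.333, so that none could reach significance with this design. The genes in these shares and ratios differ in exon length, and no share or ratio was computed with the length trend taken out.

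**Figure D3:**
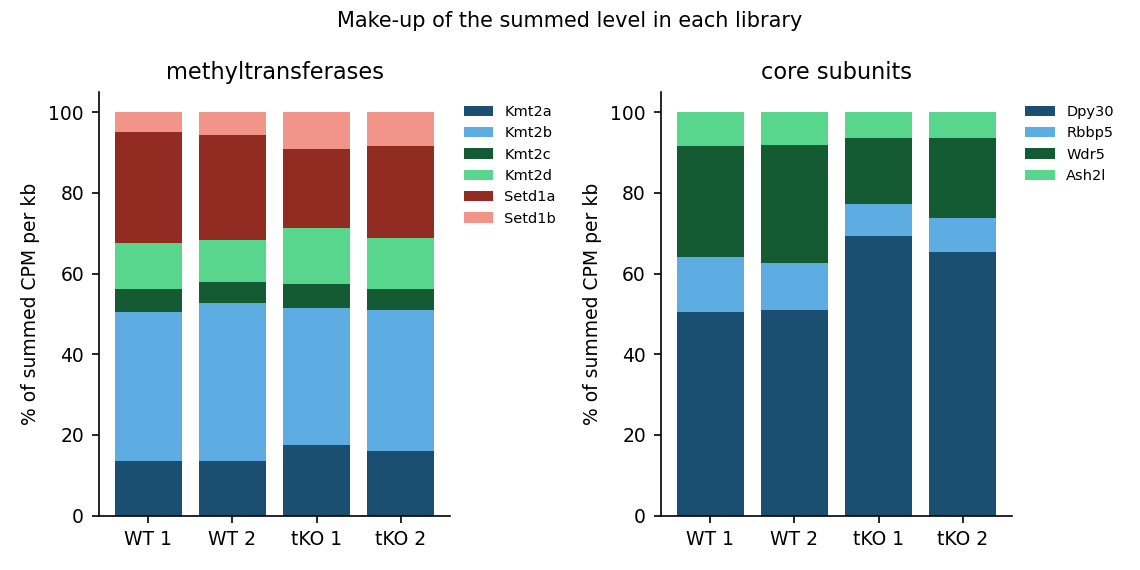
Share of each enzyme in the summed level of the 6 methyltransferases, and of each core subunit in that of the 4 core subunits, in percent of summed CPM per kilobase, as a stacked bar for each of the 4 libraries. The bars show Dpy30 at a mean of 50.7% of the core transcripts in WT and 67.3% in Mek1/2-tKO, and Setd1a, per kilobase of its full exon length, at 26.8% and 21.2% of the enzyme transcripts.

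The members differ in exon length from 1146 bases (Dpy30) to 20291 bases (Kmt2c), and fold changes moved with length over all genes tested. Genes under 2 kb, among them Dpy30, showed a median of 0.46 on the log2 scale, with 33.7% called higher and 5.29% lower. Genes of 8 kb or more, among them 6 members (Kmt2a, Kmt2b, Kmt2c, Kmt2d, Setd1b and Ash2l), had a median of -0.43, with 8.94% called higher and 36.3% lower. With the per-library trend on length taken out, 1 member was called higher and 0 lower, while 29.4% of all genes were called. It was Setd1b (log2 fold change 0.78, adjusted p = 0.00115 by edgeR's quasi-likelihood test). In that fit 5 members were higher and 3 lower at an unadjusted p under 0.05, a threshold at which the share of all genes is not given here. Dpy30 was then at 0.27 and Setd1a at -0.42, both under the fold threshold, and Kmt2a at 0.43, Kmt2c at 0.17, Kmt2d at 0.44 and Ash2l at 0.19 turned positive. The value of Setd1a rests on its full exon length, of which 3272 bases are unshared, and the unshared length was not fitted. The paralogs compared above are of unequal length, 6795 bases for Setd1a against 12068 for Setd1b and 16670 for Kmt2a against 9596 for Kmt2b. Dpy30 is also shorter than the rest of the core, at 1146 bases against 3596 for Wdr5, 3930 for Rbbp5 and 8969 for Ash2l. The part of the length trend in the members' differences, shares and ratios was not tested.

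**Figure D4:**
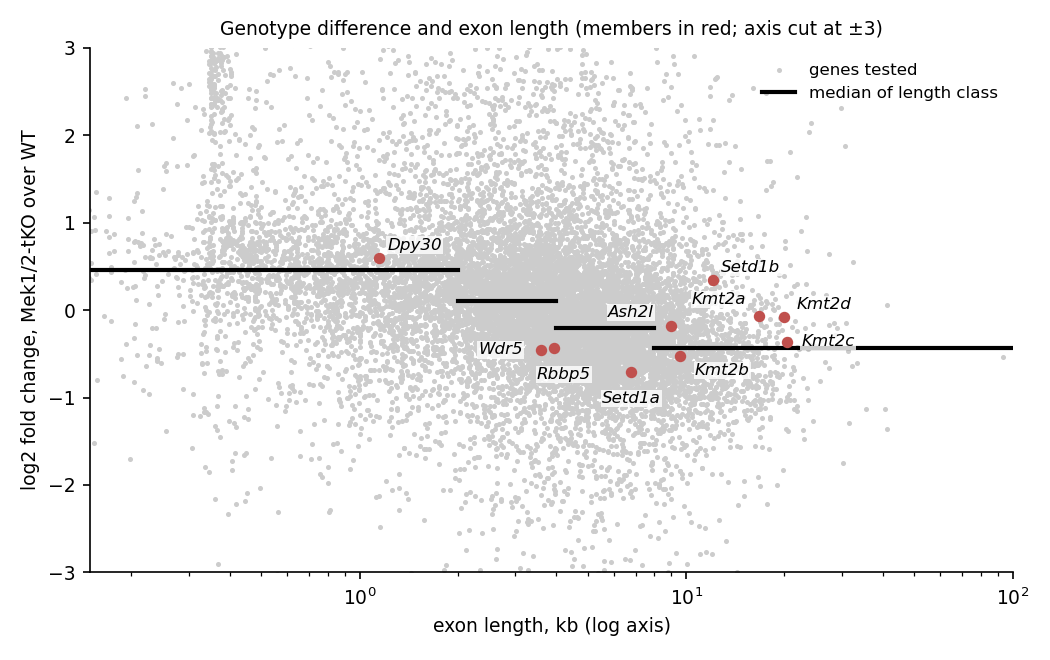
Log2 fold change (Mek1/2-tKO over WT, vertical axis) against exon length in kilobases (log axis) for the genes tested, with the members labelled and 613 genes outside the axes left out. Genes under 2 kb have a median of 0.46 and genes of 8 kb or more a median of -0.43, and Dpy30 lies at the short end and the Kmt2 genes at the long end.

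Other genes of H3K4 methylation were described from lists of 52 genes, of which 51 were tested, 19 fell and 0 rose by edgeR's quasi-likelihood test, and DESeq2 called the same numbers. At an unadjusted p under 0.05, 2 were higher and 32 lower, and the share of all genes at that threshold is not given here. With the length trend taken out 9 of the 51 were lower, against 12.3% of all genes. At an adjusted p under 0.05 without a fold threshold, 32 were lower and 2 higher, against 27.2% and 27.8% of all genes. At both thresholds, all 14330 genes tested had 16.4% called lower and 19.3% higher.

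Of 12 complex-specific subunits, 11 were tested and 6 fell, with a median log2 fold change of -0.69. The Mek1/2-tKO levels of Hcfc1, a host cell factor found in the SETD1 and KMT2A/B complexes, were 93.7 and 111 CPM, against 204 and 222 CPM in WT (log2 fold change -1.06). Ncoa6, a nuclear receptor coactivator of the KMT2C/D complexes, was at 34.0 and 37.0 CPM against 11.8 and 19.1 CPM (-1.19). Bod1l at -0.97 and Paxip1 at -0.90 also fell, as did Men1 (menin, -0.77) and Psip1 (-0.69), which tether the KMT2A/B complexes. Of the rest, Cxxc1, the CpG-binding subunit of SETD1, had a log2 change of -0.05 and Wdr82, another SETD1 subunit, of -0.37, and neither was called. Men1, Psip1, Cxxc1, Wdr82 and Pagr1a were named after their values were seen. Pagr1a was at 0 in every library, but 98.7% of its exon bases also belong to another gene of that strand. With the length trend taken out 3 of the 11 were lower, against 12.3% of all genes, and the median was -0.50.

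Of the 8 genes in the H3K4 demethylase list, 7 fell, with a median log2 fold change of -0.76. Not all of them act on H3K4me3. The list holds the Kdm5 enzymes of tri- and dimethylation, the Kdm1 enzymes of di- and monomethylation, the cofactor Rcor1, and Kdm2b, whose activity was not assessed here. Kdm5b, which removes tri- and dimethylation, was at 44.5 and 40.5 CPM in WT against 10.9 and 11.7 CPM in Mek1/2-tKO. Both Mek1/2-tKO libraries lay far below both WT libraries, at a log2 change of -1.91 (SE 0.14, adjusted p = 7.15e-08 by edgeR's quasi-likelihood test). Kdm5c was at 134 and 141 CPM against 62.5 and 71.0 CPM, and Kdm1b, a flavin-dependent demethylase of mono- and dimethylated H3K4, was at 36.2 and 34.0 CPM against 15.8 and 14.5 CPM. Rcor1 (-0.79), Kdm1a (-0.72), Kdm5a (-0.67) and Kdm2b (-0.67) were lower as well. Kdm5d had a log2 change of -0.25, which turned to 0.23 when the length trend was taken out, and did not pass (adjusted p = 0.165 by edgeR's quasi-likelihood test). Kdm1a, Kdm5a, Kdm2b and Kdm5d were named after their values were seen. With the length trend taken out, 3 of the 8 were called lower, against 12.3% of all genes.

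In the remaining lists fewer genes were called. Among 6 genes listed as other H3K4 methyltransferase genes, whose activity was not assessed here, 1 fell. It was Setd7, at 51.9 and 47.8 CPM in WT and 22.4 and 27.3 CPM in Mek1/2-tKO (log2 fold change -1.002). Among 11 readers of H3K4me3, 3 fell, the remodeller Chd1 (-0.91), Bptf, a subunit of the NURF remodeller (-0.91), and Phf2 (-0.82). Among 10 genes of H2B ubiquitination and the PAF complex, which prepare H3K4 methylation, 1 fell (Ctr9, -0.60), and among 5 enzymes of other active marks, 1 fell (Kat2a, -0.59). Both lay close to the fold threshold. Ctr9 was under it without WT replicate 2 (-0.55), without Mek1/2-tKO replicate 1 (-0.49) and with the length trend taken out (-0.27), and Kat2a without WT replicate 2 (-0.50), without Mek1/2-tKO replicate 1 (-0.56) and with at least 10 counts required in every library (-0.57). With the length trend taken out, 1 of the other methyltransferase genes, 1 reader, 0 of the H2B list and 1 of the other enzymes were lower.

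**Figure D5:**
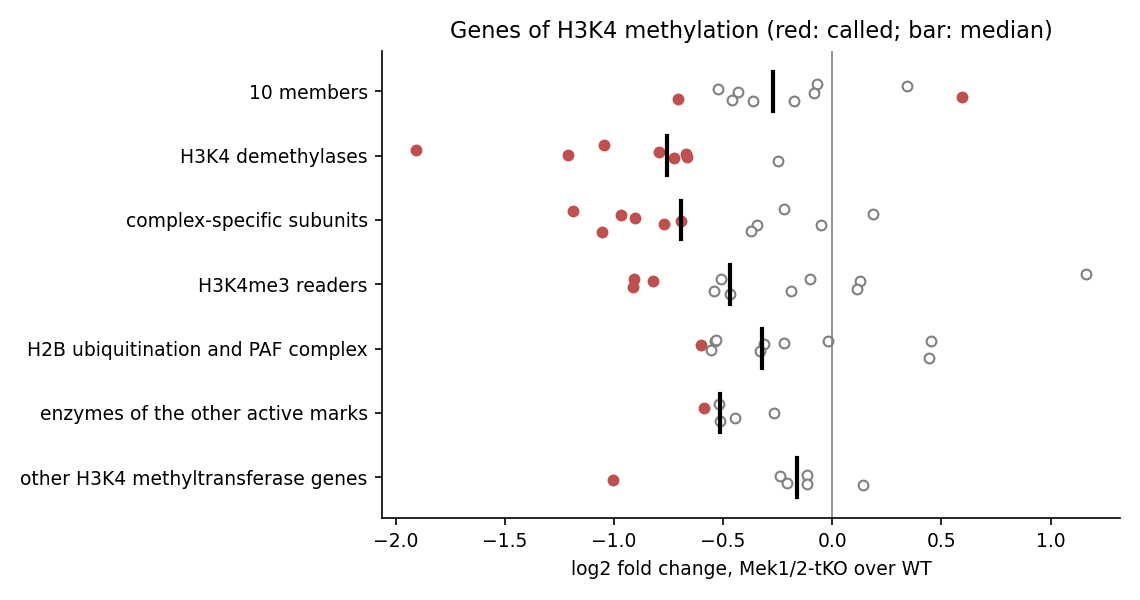
Log2 fold changes (Mek1/2-tKO over WT) of the tested genes of the member sets and of the 6 lists of H3K4 methylation, 1 point per gene, filled where the gene was called, with a bar for each list's median. The demethylase and complex-specific lists have medians of -0.76 and -0.69, against 0.02 for all genes.

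The study measured H3K4me3 at the promoter of Irf4, a transcription factor. Irf4 was at 578 and 550 CPM in WT against 186 and 209 CPM in Mek1/2-tKO. Both Mek1/2-tKO libraries lay far below both WT libraries, at a log2 change of -1.51 (SE 0.08, adjusted p = 4.19e-09 by edgeR's quasi-likelihood test), and it remained at -1.35 with the length trend taken out.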

How the data were processed

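RNA of viable cells, polarized for 3 days, was sequenced as read pairs in 2 WT and 2 Mek1/2-tKO libraries made with a stranded kit. The authors trimmed reads with Trimmomatic 0.36, mapped them to GRCm38 (mm10) and counted reads per gene with featureCounts (Subread 1.5.1). They deposited raw counts without normalization, 1 file per library. The strand setting and the annotation release of the counting are not given in the sources used here. Of the 54752 identifiers, 54723 had a symbol, and 54037 had the same span as in GENCODE vM21, from which gene positions and shared exon bases were read.

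The counts of all genes entered edgeR 4.0.16 (R 4.3.3) through filterByExpr, TMM and a robust quasi-likelihood fit, with Benjamini-Hochberg adjustment over the 14330 genes tested. Calls needed a fold change of at least 1.5 together with an adjusted p under 0.05. CPM are TMM-scaled, and CPM per kilobase divide them by the exon length in the files. Standard errors and 95% confidence intervals come from the same fit. Tables and plots were made with Python 3.11.15, pandas 2.3.3 and matplotlib 3.10.9, and the comparison was first tested on simulated data. The common dispersion was 0.00842. The chi-square per gene between replicates was 4.07 for WT and 10.1 for Mek1/2-tKO, above sampling noise. Where a gene had 0 counts, up to 3 counts (0.184 CPM in the shallowest library) are still possible by counting error alone.

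The settings tried besides were scaling by library size alone or by DESeq2's size factors, the tests of DESeq2 1.42.0 and of a likelihood ratio, a minimum of 10 counts in each library or no filter, a replicate block, a per-library lowess trend on exon length (span 0.3), no fold threshold and leaving out each library. Trends on both GC content and length, the unshared exon bases of Setd1a and 3 of the 7 ratios were added after the data were seen. The members and lists were chosen with earlier results of these data known. Named were all members, Map2k1, Map2k2, Irf4, defining cell-type markers and, of each pathway list, at most 4 called genes per direction with the largest fold change. Genes named otherwise are marked in the text. In vivo RNA-seq and ATAC-seq were not analysed here.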

Additional observations from a re-analysis of the deposited data

How the results depend on the processing

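Taking out the length trend, or the GC and length trends together (added after the data were seen), turned the sign of several members. The log2 fold change then was 0.43 or 0.38 for Kmt2a, 0.17 or 0.19 for Kmt2c, 0.44 or 0.41 for Kmt2d, 0.19 or 0.22 for Ash2l and 0.23 or 0.26 for Kdm5d, all negative otherwise. Setd1a (-0.42 or -0.46, at its full exon length) and Dpy30 (0.27 or 0.33) were no longer called, and Setd1b was called (0.78 or 0.75). In these fits 0 members were called lower, and 9 or 8 pathway genes were lower in place of 19. With library size alone, Kmt2b was called at -0.61, Dpy30 was not at 0.51, 0 members were higher and 2 lower, and all genes gave 2388 higher and 2848 lower in place of 2768 and 2355. Without a fold threshold Kmt2b (-0.52), Wdr5 (-0.46) and Rbbp5 (-0.43) were also called, giving 4 members lower, 32 pathway genes lower and 2 higher, and 3903 of all genes lower. The cause of these changes was not tested.

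Leaving out each library in turn gave 0 to 1 members higher, 0 to 3 lower and 0 to 1 pathway genes higher. The log2 fold change ranged from -0.68 to -0.39 for Kmt2b, from -0.97 to -0.50 for Setd1a and from 0.56 to 0.63 for Dpy30. It ranged from -0.62 to -0.32 for Wdr5 and from -0.54 to -0.32 (without WT replicate 1) for Rbbp5. The log2 ratio of the enzymes to the core without Dpy30 differed by -0.036 to 0.079 between the genotypes. That of Cxxc1 ranged from -0.13 to 0.016. Without Mek1/2-tKO replicate 1, 0 members were called, without WT replicate 1, 0 were higher and 2 lower, and without Mek1/2-tKO replicate 2, 3 were lower. With 1 library left in a genotype, it is assumed to vary like the others.

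The deviations of libraries of the same replicate number correlated at -0.0262 over genes, so no shared shift was seen. This value cannot tell whether such libraries share a culture or preparation, which the labels do not state. With the replicate block 1 member was higher and 1 lower, 2652 and 2300 of all genes were called, and no named gene changed its call. DESeq2, the likelihood-ratio test, DESeq2's size factors, both other filters and the block left the members' calls at 1 higher and 1 lower. With library size alone, 7 of the 20 mean levels moved by more than the SD. Differences of members with few counts, such as Setd1b at 179 to 257, were the least precise.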

Other observations

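Wdr5b (ENSMUSG00000034379.9, chr16:36041190-36043928), a single-exon paralog of Wdr5 that lies outside the 10 members, was chosen after its values were seen. It was at 5.18 and 4.20 CPM in WT and at 13.4 and 17.0 CPM in Mek1/2-tKO. Both Mek1/2-tKO libraries lay above both WT libraries, at a log2 change of 1.70 (SE 0.22, adjusted p = 1.89e-05 by edgeR's quasi-likelihood test), and it was called higher in all 14 alternatives run. Its paralog Wdr5 had a log2 fold change of -0.46. Of its exon bases, 6.13% overlap Fam162a on the opposite strand. The paper states that uniquely mapped reads were counted, so reads that fit Wdr5 and Wdr5b equally would be left out of both counts.

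The summed level of the 6 methyltransferases was compared with that of the 4 Kdm5 demethylases, a ratio added after the values were seen. The Kdm5 genes summed to 27.3 and 27.4 CPM per kilobase in WT, against 13.0 and 14.5 in Mek1/2-tKO. The log2 ratio of enzymes to Kdm5 genes was -0.81 and -0.69 in WT and -0.18 and -0.10 in Mek1/2-tKO, a difference of 0.61 without overlap (exact two-sided permutation p = 0.333, the smallest this design allows). Transcript levels do not measure the activity of either side.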
